A study of Danio rerio with 10 samples.

Results

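The genes that encode translation initiation and elongation factors were described in RNA-seq libraries of sorted zebrafish microglia, the resident macrophages of the brain, and of other brain cells. A gene was included when its name began with eif and a digit of 1 to 6, or with eef and 1 or 2. The kinases, methyltransferases and binding proteins that act on the factors were left out. The rule gave 72 of the 21756 genes in the deposited table, 56 of them for initiation and 16 for elongation, and used no measured value. All 72 passed the filter of a signal of at least 1 in at least 2 of the libraries used, although eif3bb and eef1a2 passed it through the other brain cells alone.

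Every fish was 3 months old and of the line Neuro:NTR-mCherry x mpeg1:GFP. In this line a nitroreductase (NTR) fused to mCherry is placed under a driver labelled Neuro, and GFP under mpeg1, a promoter of macrophages and microglia. Cells that carry the nitroreductase are killed when they convert metronidazole (MTZ). Activated microglia came from MTZ-treated fish at 24 h (samples 3 and 7) or 48 h (samples 4 and 8), and control microglia from fish given the solvent DMSO (samples 1 and 5). Microglia were the GFP-positive cells of brains dissociated with trypsin, enriched on Percoll and sorted. The other brain cells (samples 2, 6 and 10) were GFP-negative cells collected in the same way, and their treatment is not given in the labels. A further control library, sample 9, held the same value as 24 h sample 3 in all 21756 genes, so that column was left out and control microglia had 2 libraries. The labels do not say that samples came from separate fish, so the p-values measure the spread between these samples, which may be technical.

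Initiation begins when eIF2, loaded with GTP and the initiator tRNA, joins the small ribosomal subunit together with eIF1, eIF1A, eIF3 and eIF5, and eIF4F (the cap-binding eIF4E, the scaffold eIF4G and the helicase eIF4A) recruits the mRNA. eIF2B recharges eIF2 with GTP, and this step is blocked when stress kinases phosphorylate the alpha subunit of eIF2. During elongation eEF1A delivers aminoacyl-tRNA, the eEF1B complex recharges eEF1A, eEF2 moves the ribosome along the mRNA, and eIF5A, despite its name, relieves stalled ribosomes. Levels below are the authors' normalised signal, in which a gene without reads has 0.223. They are not scaled to gene length and are compared between libraries only, not between genes. Fold changes are differences of mean log2(signal + 1) with their standard error, tested with limma, and a gene was called when its Benjamini-Hochberg adjusted p over 21714 genes was below 0.05.

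The 9 libraries used held 6185540 to 12815571 reads assigned to genes. All 8 microglia markers examined were called higher in control microglia than in other brain cells, and the 7 neuron markers were called lower. Marker levels of other cells differed between some activated and control libraries. The summed signal of 7 oligodendrocyte markers was 412, 684, 320 and 584 in the 4 activated libraries, against 2117 and 1089 in control samples 1 and 5. The summed signal of the neuron markers was 67.8, 90.9, 68.4 and 333 in activated microglia, against 252 and 243 in control microglia. In 48 h sample 8 the gene stmn1b alone held 278 of the 333 (186 and 149 in control microglia). There elavl3 and snap25a were below both control libraries, sypa was above them near 0 reads, and the others lay between. None of these markers was called between activated and control microglia. The summed erythrocyte markers were at 5.13 to 14.8 in activated microglia against 238 and 39.6 in control microglia, and the T lymphocyte markers at 0.92 to 2.68 against 10.6 and 4.93, with none called. Of 3 endothelial markers, fli1a was called higher in activated microglia (6.85 to 9.99 against 0.996 and 1.59 in control microglia, limma, adjusted p = 0.0492). The marker tie1 had 25.5 to 53.2 against 4.4 and 12.9 without passing, whereas cdh5 had 0 reads in both 48 h libraries. The summed microglia markers were at 116230 in 48 h sample 8 and 27702 to 66655 in the other activated libraries, against 24055 and 27669 in control microglia. The gene apoeb alone held 101048 of that sum in 48 h sample 8. Of the other microglia markers there, spi1b (424 against 492 and 644) was below both control libraries and the rest were above both. Of the activated libraries this sample was the lowest for spi1b, csf1ra and p2ry12. The radial glia and astrocyte markers were at 27307 in that sample, against 3905 and 4890 in control microglia. The gene glula alone held 26928 of that sum (3603 and 4612 in control microglia). Of the other markers on this list, gfap and s100b were below both control libraries there. The genes fabp7a and cx43 were above both, and slc1a2b lay between. Reads of mitochondrially encoded genes made up 1.70% to 5.58% of the activated libraries, against 6.69% and 8.99% of the control libraries. The part of these differences in the results below was not tested. In bulk RNA, fewer cells of a type and less RNA per cell cannot be told apart.

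Reads of the 72 genes together took a larger share of each activated library than of any control library. The share was 1.56% and 1.5% at 24 h and 1.20% and 1.17% at 48 h, against 0.849% and 0.955% in control microglia. In other brain cells it was 0.680%, 0.537% and 0.808%, below every microglia library. Initiation factors contributed 0.652% and 0.621% at 24 h and 0.495% and 0.472% at 48 h, against 0.342% and 0.407% in control microglia, and the groups did not overlap. Elongation factors contributed 0.910% and 0.879% at 24 h and 0.706% and 0.696% at 48 h, against 0.507% and 0.548% in control microglia, again without overlap. These shares are sums of reads, weighted to genes with many reads such as eef1a1l1. In the authors' normalised signal the time points did not separate. The initiation sums were 6487 and 6259 at 24 h and 5295 and 6806 at 48 h, against 3655 and 4281 in control microglia. The elongation sums were 9047 and 8849 at 24 h and 7533 and 10029 at 48 h, against 5413 and 5756. Between pooled activated and control microglia, 10 of the 16 elongation genes had fold changes above 0. The 5 genes of the eEF1B complex lay at -0.25 to 0.26 on the log2 scale. The initiation share of the other brain cells, 0.297% to 0.387%, overlapped that of control microglia, whereas their elongation share, 0.239% to 0.421%, did not.

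**Figure D1:**
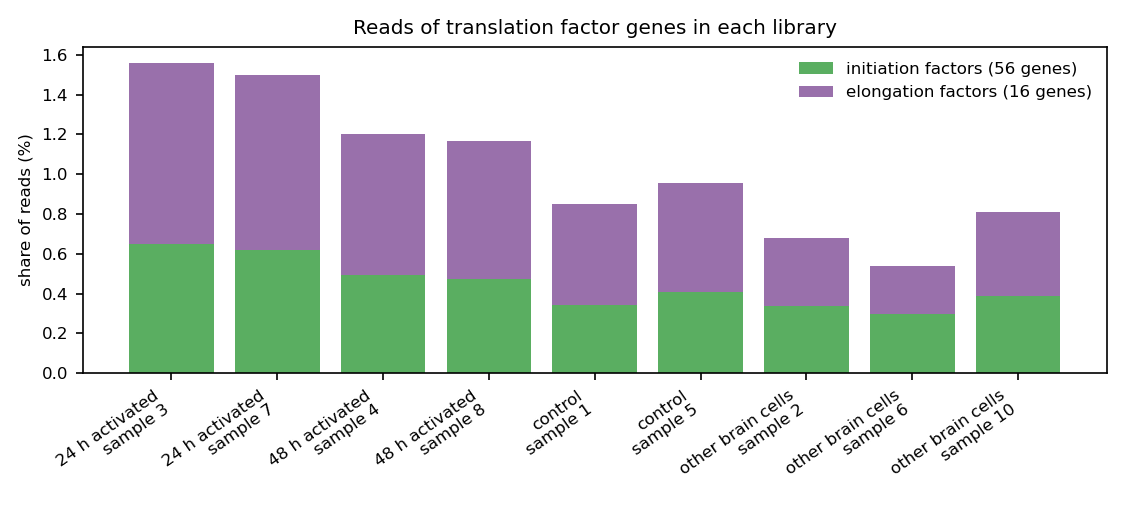
Share of assigned reads, in percent, taken by the initiation and the elongation factor genes in each of the 9 libraries, grouped as 24 h activated, 48 h activated, control microglia and other brain cells. The activated libraries lie above the control libraries in both classes, and the elongation share of the other brain cells lies below that of every microglia library.

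The first comparison set the 4 activated libraries against the 2 control libraries, following the study's own pooling of the 24 h and 48 h samples. A single factor, eif2a, passed the test as higher (0.834% of all genes did), and no factor passed as lower (0.47% of all genes). At an unadjusted p below 0.05, 27 of 72 were higher and 1 was lower by limma, against 11.2% and 9.33% of all genes. At the adjusted threshold limma-voom on the reads called 0 factors higher and 0 lower, against 23 and 24 of all 21714 genes. Fold changes were above 0 for 54 of the 72, with a median of 0.48 on the log2 scale, while the median of all genes was 0.0057. After quantile normalisation these medians were 0.28 and -0.0081. For 35 factors (48.6%) every activated library lay above both control libraries, as it did for 15.9% of all genes, and for 1 factor every activated library lay below, as for 15.5%.

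The gene that passed, eif2a, encodes eIF2A, a protein that can bring initiator tRNA to the ribosome and is distinct from the eIF2 complex. Its signal was 39.1 and 45.9 at 24 h and 35.2 and 55.2 at 48 h, against 9.80 and 9.51 in control microglia. Activated and control libraries were far apart, and the other brain cells, with 9.80, 5.31 and 10.8, were at the level of the controls. The log2 fold change was 2.05 ± 0.24 (limma, adjusted p = 0.0405). With consecutive sample numbers as a block the adjusted p was 0.0837, and by limma-voom on the reads 0.0656, so the call was lost under both. By library, it was kept without 48 h sample 8 (adjusted p = 0.0329) and lost without 24 h sample 3 (0.144), 24 h sample 7 (0.135), 48 h sample 4 (0.149), control sample 1 (0.131) or control sample 5 (0.0713), the fold change staying between 1.94 and 2.15 on the log2 scale. Without 24 h sample 3, 24 h sample 7 or 48 h sample 4, and with the block, 0 of all 21714 genes were called. In the authors' deposited table eif2a had a log2 fold change of 1.48 and an FDR of 0.0518. The related eif2d, whose product also handles initiator tRNA, had signals of 21.1 and 21.8 at 24 h and 14.3 and 12 at 48 h, against 13.5 and 12.6 in control microglia, and did not pass.

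All 4 subunit genes of eIF2 had fold changes above 0, between 0.43 and 1.30 on the log2 scale, and none passed. The beta subunit gene eif2s2 had signals of 229 and 208 at 24 h and 147 and 143 at 48 h, against 54.6 and 93.8 in control microglia. No activated library reached down to a control library, and the log2 fold change was 1.30 ± 0.32 (limma, adjusted p = 0.0994). The gamma subunit gene eif2s3 had signals of 229.6 to 283 in activated microglia and of 186 and 199 in control microglia. The alpha subunit, the target of the stress kinases, has 2 gene copies. Signals of eif2s1a were 83.2, 80.5, 70.8 and 195 in activated microglia, against 41.3 and 50.6 in control microglia, and those of eif2s1b were 97.9, 82.4, 84.1 and 105, against 66.2 and 61.3.

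The 5 genes of the exchange factor eIF2B were likewise all above 0, at 0.38 to 1.74 on the log2 scale, without a call. The beta subunit gene eif2b2 had signals of 31.9 and 37.3 at 24 h and 36.7 and 96.7 at 48 h, against 14.6 and 11.3 in control microglia. Its groups did not overlap, but 48 h sample 8 stood far above the other activated libraries (log2 fold change 1.74 ± 0.48, limma, adjusted p = 0.122). Without that sample the log2 fold change was 1.38 and the limma adjusted p 0.0349. That fit called 15 of the 72 factors and 1043 of all 21714 genes higher. With any other library left out eif2b2 did not pass. The same holds below for eif3s6ip, eif4bb, eif4g1a, eif5 and eef2b. Of the fits that left a library out, these passed only in the fit without 48 h sample 8. In the authors' deposited table eif2b2 had the lowest FDR of the 72 genes in the pooled comparison, 0.0356, with a log2 fold change of 1.49. The alpha subunit gene eif2b1 had signals of 56.1, 45.3, 39.2 and 66.3 in activated microglia, against 33.0 and 33.1 in control microglia.

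eIF3 is the largest initiation factor, a scaffold on the small subunit, and 13 of its 17 genes had fold changes above 0. The leading gene was eif3s6ip, which the reference gene names give as EIF3L, with signals of 193 and 175 at 24 h and 158 and 142 at 48 h, against 73.9 and 76.6 in control microglia. The libraries within each group were close together, and the log2 fold change of 1.13 ± 0.19 had a limma adjusted p of 0.0546 (0.0329 without 48 h sample 8). The subunit b gene eif3ba had signals of 535, 551, 420.1 and 501 in activated microglia, against 125 and 245 in control microglia, with a log2 fold change of 1.51 ± 0.31 (limma, adjusted p = 0.0751). Its copy eif3bb had 0 reads in 3 activated libraries and both control libraries and 2 reads in 48 h sample 4. Subunit f, encoded by eif3f, had the lowest fold change of the family, with signals of 125, 90.7, 79.5 and 151 in activated microglia against 186 and 149.5 in control microglia. Its groups overlapped, and it did not pass (-0.62 ± 0.30).

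Among the mRNA-recruiting factors, the genes of eIF4B and eIF4H, which stimulate the helicase, and most of those of eIF4G lay above 0. Signals of eif4bb were 138 and 149.7 at 24 h and 109 and 105 at 48 h, against 34.7 and 54.0 in control microglia. The groups were separate (log2 fold change 1.5 ± 0.26, limma, adjusted p = 0.0594, and 0.0393 without 48 h sample 8). Its copy eif4ba had signals of 11.9 to 20.2 in activated microglia, against 8.10 and 10.7 in control microglia. The scaffold gene eif4g1a had signals of 269.9 and 273 at 24 h and 253 and 116 at 48 h, against 27.1 and 75.3 in control microglia, the highest fold change of the 72 genes (2.23 ± 0.53 on the log2 scale). Its groups did not overlap, but it did not pass (limma, adjusted p = 0.0949). Without 48 h sample 8, the lowest activated library, the adjusted p was 0.0433. The second EIF4G1 gene, EIF4G1 (2 of 2), had signals of 14.6, 16, 17.7 and 2.35 in activated microglia, against 1.46 and 1.90 in control microglia, with the same sample far below the rest. The gene eif4g2b, which encodes a scaffold without the eIF4E-binding site, had signals of 299.9 to 319 in activated microglia against 242 and 167 in control microglia.

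The helicase and cap-binding genes were mixed. The helicase gene eif4a1a had signals of 228 to 363 in activated microglia against 159 and 246 in control microglia, while its copy eif4a1b had 155 to 315 against 228 and 259, and both pairs of groups overlapped. The exon junction helicase gene eif4a3 had signals of 137, 138, 109 and 135 in activated microglia, against 83.7 and 81.2 in control microglia, separate groups that differed by 0.64 ± 0.18 on the log2 scale (limma, adjusted p = 0.119). Cap-binding genes did not share a direction: 4 of the 7 eIF4E-family genes, the transporter gene eif4enif1 included, lay above 0. The gene eif4e3, for example, had signals of 48.9 and 57.6 at 24 h and 88.5 and 135 at 48 h, against 77.6 and 79.5 in control microglia. The control values lay between those of the time points.

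The gene eif5 encodes the GTPase-activating protein of eIF2, which acts once the start codon is found. Its signals were 232 and 284 at 24 h and 247 and 265 at 48 h, against 122 and 148 in control microglia. The groups were well apart, and the log2 fold change was 0.92 ± 0.18 (limma, adjusted p = 0.0721, and 0.0453 without 48 h sample 8). Of the fits that left a library out, eif5 passed only in that one, which called 1043 of all 21714 genes higher. The GTPase gene eif5b had signals of 55.0 to 101 in activated microglia, against 35 and 48.9 in control microglia, and eif6, whose product keeps free large subunits from joining, had 30.1 to 100.4 against 17.7 and 37.2. Genes of eIF1 and eIF1A, which govern scanning, lay on both sides of 0, from -0.29 to 0.32 on the log2 scale. The eIF1A gene eif1axb had signals of 174, 149, 102 and 468 in activated microglia against 146 and 155 in control microglia. A single library, 48 h sample 8, carried its high mean.

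**Figure D2:**
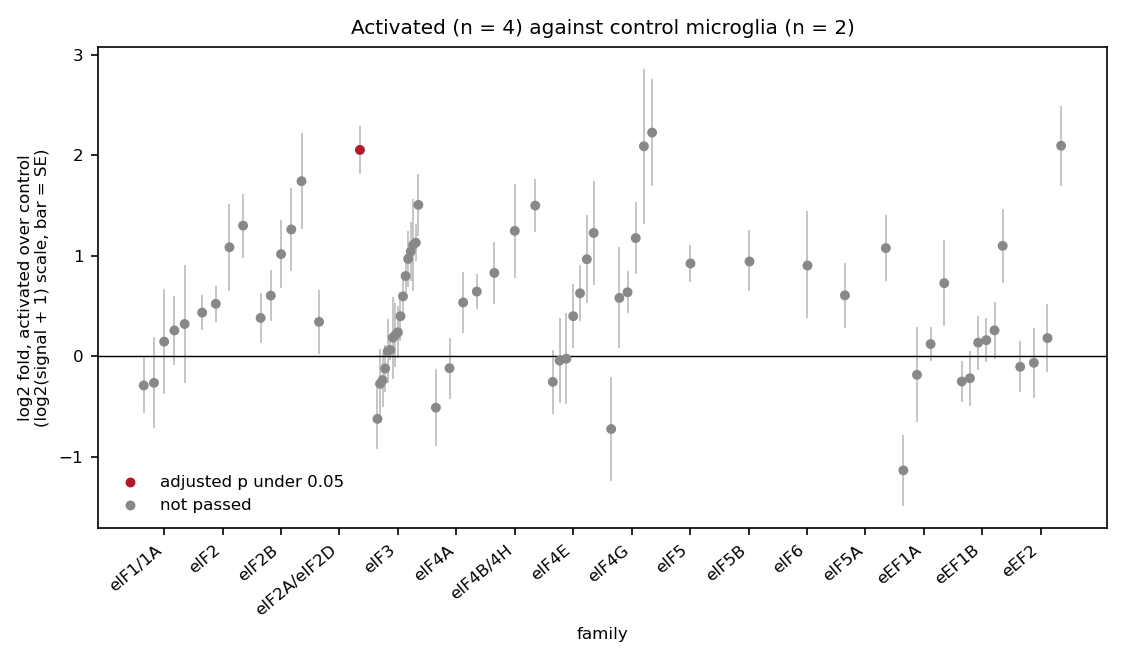
Log2 fold changes of the 72 factor genes for activated (n = 4) over control microglia (n = 2), grouped by family on the x axis, with bars for the standard error. The red point, eif2a, passed the adjusted threshold, and 54 of the 72 points lie above 0.

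No elongation gene passed. The translocase gene eef2b, which encodes eEF2, had signals of 1269 and 1135 at 24 h and 1113 and 543 at 48 h, against 207 and 245 in control microglia. All 4 activated libraries lay above both controls, 48 h sample 8 least so. The log2 fold change was 2.10 ± 0.40 (limma, adjusted p = 0.067), and 2.37 with an adjusted p of 0.0305 without that sample. The other eEF2 genes had overlapping groups: eef2a.1 had signals of 66.4 to 108 in activated microglia against 83.5 and 111 in control microglia, eef2a.2 had 13.0 to 25.4 against 14.9 and 25.2, and eef2l2 had 5.11 to 8.75 against 4.70 and 6.62. Reads of 50 nucleotides may not separate near-identical copies such as eef2a.1 and eef2a.2, and the counting rule is not given in the sources used here, so the split between copies is uncertain.

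The eEF1A gene eef1a1l1 had signals of 3978 and 4463 at 24 h and 3453 and 5178 at 48 h, against 2491 and 2610 in control microglia. The groups did not overlap, and the log2 fold change of 0.73 ± 0.43 did not pass. A second eEF1A gene, eef1a1a, was the 1 factor with every activated library below both controls, at 5.11, 7.83, 4.00 and 6.48 against 11.5 and 16.4. Its log2 fold change of -1.14 ± 0.36 did not pass either (limma, adjusted p = 0.152). This gene was abundant in other brain cells, where its signal was 153 to 213, and the summed neuron and oligodendrocyte markers were also higher in the control libraries than in 3 and in all 4 of the activated libraries; the part of such cells in its signal was not tested. The 5 genes of the eEF1B complex had fold changes of -0.25 to 0.26 on the log2 scale: eef1g had signals of 758, 684, 659.8 and 821 in activated microglia against 657 and 646 in control microglia, and eef1b2 had 755, 571, 453 and 499 against 659.9 and 642. The 2 eIF5A genes lay above 0, eif5a2 at 1132, 852, 798 and 1250 in activated microglia against 372 and 591 in control microglia (log2 fold change 1.08 ± 0.33, limma, adjusted p = 0.147).

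**Figure D3:**
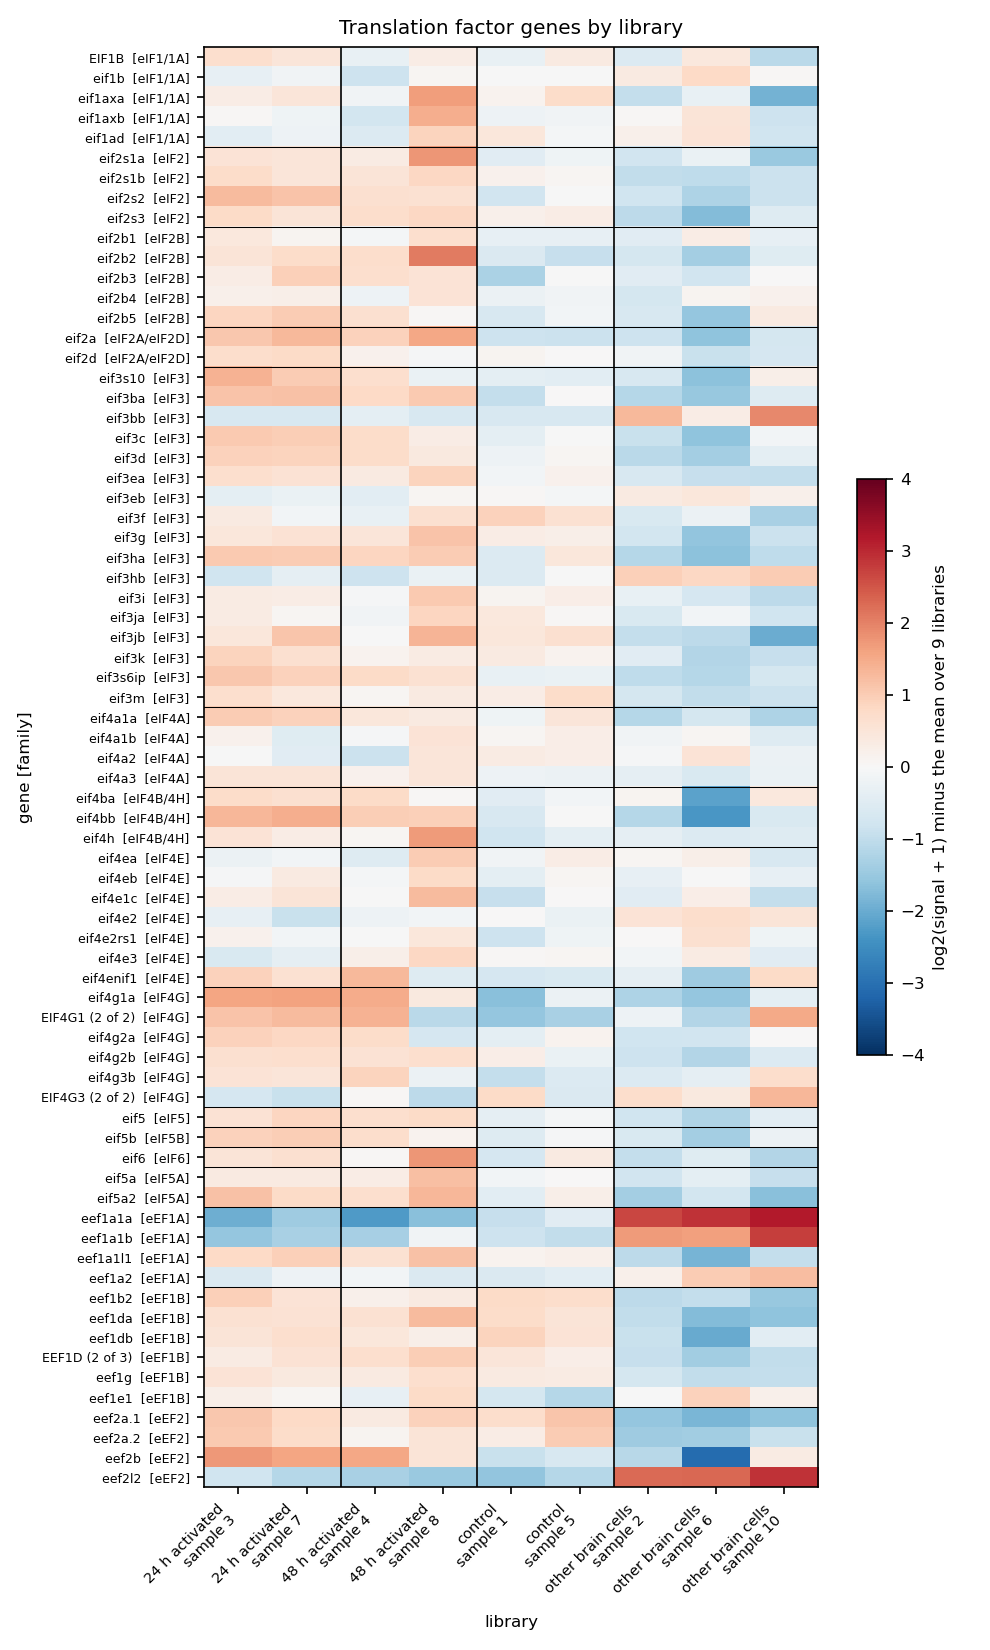
Log2(signal + 1) of each of the 72 factor genes (down, by family) in each of the 9 libraries (across), minus the gene's mean over the 9 libraries, in red where above that mean and in blue where below. The genes of eIF2 and the gene eif2a are red in the 4 activated libraries and mostly blue in other brain cells, and eef1a1a, eef1a1b and eef2l2 are red in other brain cells.

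The study's own test of the same comparison was read from the deposited results. In the authors' deposited table for pooled activated against control microglia, 4 factors were higher at an FDR below 0.05 (2.39% of all genes) and none was lower (3.31%). These were eif2b2, eif4bb (log2 fold change 1.28, FDR 0.0456), eif2s2 (1.04, FDR 0.0493) and eif3s6ip (0.976, FDR 0.0498). Fold changes in the authors' deposited table were above 0 for 58 of the 72 genes, with a median of 0.54. How many control columns the authors used for it is not given in the sources used here.

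When the time points were taken separately, no factor passed at 24 h or at 48 h against control microglia. At 24 h limma called 0 higher (0.00461% of all genes) and 0 lower (0%), and 21 higher and 0 lower at an unadjusted p below 0.05 (9.18% and 6.52% of all genes). At 48 h it called 0 higher (0%) and 0 lower (0%), and 16 higher and 1 lower unadjusted (10% and 8.23%). By limma-voom the adjusted counts were also 0 at both times. The median log2 fold change of the 72 was 0.52 at both times. After quantile normalisation it was 0.36 at 24 h and 0.23 at 48 h. Both 24 h libraries lay above both control libraries for 45 factors (29.3% of all genes) and below for 10 (25.6%), and both 48 h libraries lay above for 37 (21.5%) and below for 3 (22.2%). The 2 comparisons share the control libraries. The smallest adjusted p was 0.176 at 24 h, shared by eif2a and eef2b among others, and 0.111 at 48 h, for eif2a. In the authors' deposited table no factor was below an FDR of 0.05 at 24 h in either direction (0.588% and 0.556% of all genes), and eif2b2 alone was higher at 48 h (log2 fold change 1.97, FDR 0.0126; 2.4% of all genes), with none lower (1.77%).

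Between 48 h and 24 h the factors were not shown to differ. By limma 0 were higher (0%) and 0 lower (0%), with 1 in each direction at an unadjusted p below 0.05 (1.89% and 2.25% of all genes), and limma-voom called 0 and 0. The 1 that was higher unadjusted was eif4e3 (1.03 ± 0.27 on the log2 scale, limma, adjusted p = 0.892), whose values are given above. The 1 that was lower was eif3s10, named EIF3A in the reference gene names, the subunit around which eIF3 is organised, with signals of 197 and 101 at 48 h against 323 and 246 at 24 h and a log2 fold change of -0.99 ± 0.37. Both 48 h libraries lay below both 24 h libraries for 23 factors (31.9%; 18.2% of all genes) and above for 4 (5.56%; 14.3% of all genes). Fold changes were above 0 for 37 of the 72, with a median of 0.0076, against -0.042 for all genes. All 4 genes of the eEF2 family had fold changes below 0, from -0.63 to -0.29, and 5 of the 6 eIF4G genes did. Other families ran the other way, with 6 of 7 eIF4E genes and 3 of 4 each of eIF2 and eEF1A above 0.

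Control microglia were then set against other brain cells, to show which factor genes mark microglia without the treatment. Of the 72 genes, 18 passed as higher in control microglia (25%, against 15.1% of all genes), 7 were lower (9.72%, against 20.2%) and 47 did not pass. The lower genes eif3bb and eef1a2 entered the test through the other brain cells alone, where they are high, so their direction was set by the filter. Without them 5 of 70 were lower (7.14%). The median log2 fold change was 0.44 (0.49 without these genes), while that of all genes was -0.14. Every control library lay above every library of other brain cells for 30 factors (25.9% of all genes) and below for 12 (32.6%). The 12 include eif3bb and eef1a2, whose direction was set by the filter. Elongation held 8 of the 18 higher genes and, with eef1a2 left aside, 4 of the 5 lower ones. Of these 4, eef1e1 was counted with elongation by its name, but encodes a protein of the aminoacyl-tRNA synthetase complex. In the authors' deposited table of microglia against whole brain, 23 factors were higher (17.9% of all genes) and 7 lower (24.9%) at an FDR below 0.05. It covers all 21756 genes, without the filter used here. Which microglia libraries the authors used for it is not given in the sources used here.

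The eEF1A genes ran in opposite directions. The copy eef1a1l1 had signals of 2491 and 2610 in control microglia, against 1100, 623 and 1179 in other brain cells, a log2 fold change of 1.45 ± 0.46 (limma, adjusted p = 0.0368). The copies eef1a1a and eef1a1b were lower in control microglia: eef1a1a had 11.5 and 16.4 against 153, 174 and 213 in other brain cells (-3.61 ± 0.32 on the log2 scale, limma, adjusted p = 0.000141), and eef1a1b had 7.64 and 6.77 against 48.6, 46.8 and 102 (-2.93 ± 0.42). The groups of eef1a1a and eef1a1b were wide apart, and their calls held under each alternative run. The groups of eef1a1l1 were closer but did not overlap. For eef1a2, known in mammals as the form of neurons and muscle, control microglia had 0 reads and 1 read, against 7, 23 and 43 reads in other brain cells. This is a description, since its direction was set by the filter. The call of eef1a1l1 was lost without control sample 1 (adjusted p = 0.217), control sample 5 (0.230), or sample 2 (0.0974) or 6 (0.0545) of the other brain cells, and after quantile normalisation (0.835).

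The eEF2 genes also ran in both directions. Signals of eef2a.1 were 83.5 and 111 in control microglia, against 17.1, 13.9 and 16.2 in other brain cells, and the log2 fold change of 2.54 ± 0.32 was the largest of the 18 (limma, adjusted p = 0.000559). The neighbouring copy eef2a.2 had 14.9 and 25.2 against 3.80, 3.90 and 5.98 (1.90 ± 0.44, limma, adjusted p = 0.00991, and 0.118 without control sample 5). By contrast eef2l2, which its name gives as an eEF2-like gene, had signals of 4.70 and 6.62 in control microglia, against 79.5, 81.4 and 125 in other brain cells, and was the member with the lowest fold change (-3.84 ± 0.36, limma, adjusted p = 0.000161). The copy eef2b, which led the family in activated microglia, had 207 and 245 in control microglia, against 176, 44.7 and 482 in other brain cells. Its groups overlapped widely, and it did not pass.

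**Figure D4:**
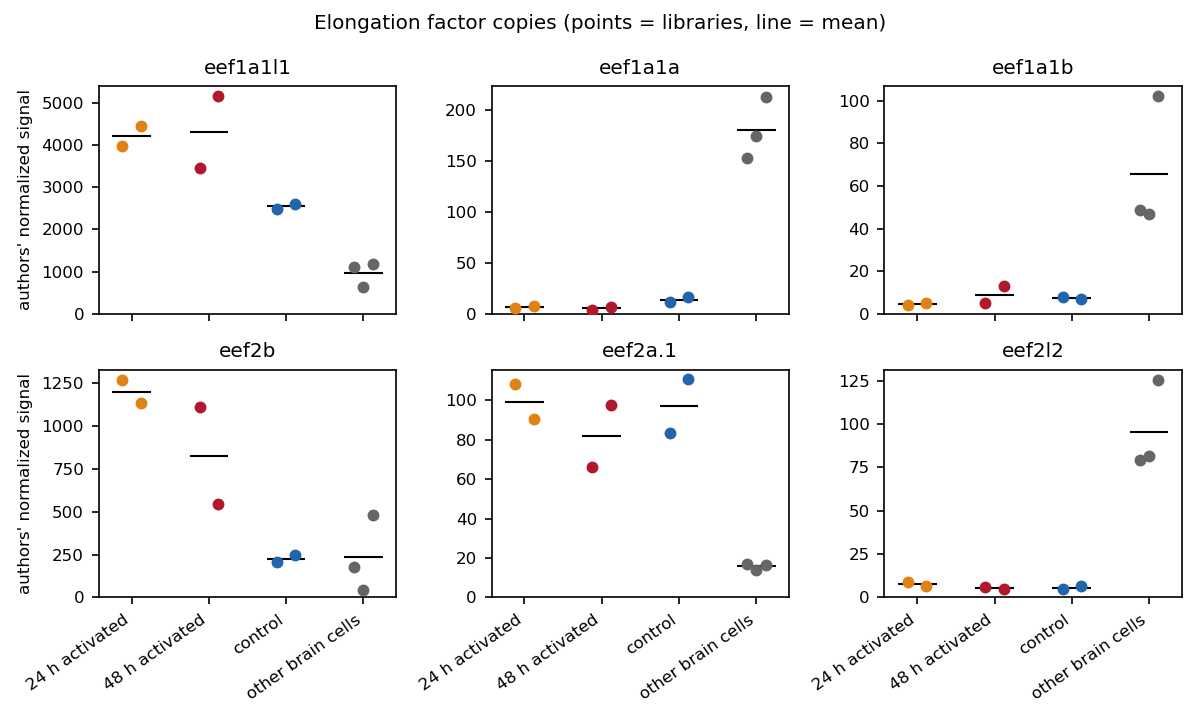
Authors' normalised signal of eef1a1l1, eef1a1a, eef1a1b, eef2b, eef2a.1 and eef2l2, a panel per gene with its own linear axis from 0, each point a library and each line a group mean. The copies eef1a1a, eef1a1b and eef2l2 are high in other brain cells, eef1a1l1 and eef2a.1 are higher in every microglia library, and eef2b is highest in activated libraries.

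All 5 genes of the eEF1B complex passed as higher in control microglia than in other brain cells. Signals of eef1da, which encodes the delta subunit, were 338 and 292 in control microglia, against 103, 60.7 and 65.4 in other brain cells (log2 fold change 2.07 ± 0.34, limma, adjusted p = 0.00193). Those of eef1b2, a catalytic subunit, were 659.9 and 642 against 189, 203 and 135 (1.91 ± 0.33), and those of eef1g, the gamma subunit, were 657 and 646 against 317, 262 and 265 (1.22 ± 0.32). The delta copies eef1db (156 and 121 in control microglia, against 44.1, 19.8 and 62.0) and EEF1D (2 of 3) (10.7 and 9.05, against 3.41, 2.17 and 3.25) were higher as well. Without control sample 1 or 5 the calls of eef1g (adjusted p = 0.125 and 0.120), eef1db (0.168 and 0.111) and EEF1D (2 of 3) (0.137 and 0.1) were lost, and those of eef1g (0.0551) and EEF1D (2 of 3) (0.0711) also without sample 2 of the other brain cells, as was that of EEF1D (2 of 3) without sample 6 (0.0518). The gene eef1e1, named with the eEF1 factors but encoding a protein of the aminoacyl-tRNA synthetase complex, was lower, with 9.49 and 6.77 in control microglia against 15.8, 31.0 and 18.7 in other brain cells (-1.28 ± 0.42, limma, adjusted p = 0.0429). Its call was lost whichever of the 5 libraries was left out (adjusted p from 0.0542 to 0.235).

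For initiation, 10 of the 56 genes passed as higher in control microglia (15.1% of all genes) and, eif3bb aside, 1 as lower (20.2%). The share called higher was thus close to that of all genes. Of the eIF3 genes, eif3jb (98.5 and 112 in control microglia, against 36.3, 34.3 and 17.2 in other brain cells; 1.88 ± 0.39 on the log2 scale), eif3f, eif3m, eif3g, eif3ha and eif3k were higher. The copies of subunit h ran in opposite directions. Signals of eif3ha were 37.5 and 75.7 in control microglia, against 24.5, 17 and 27.2 in other brain cells (1.21 ± 0.40, limma, adjusted p = 0.0468). Those of eif3hb were 5.48 and 8.29, against 17.5, 15.7 and 18 (-1.22 ± 0.38, limma, adjusted p = 0.0361). For the subunit b copy eif3bb, both control libraries had 0 reads, against 27, 10 and 82 reads in other brain cells. This is a description, since its direction was set by the filter. The remaining higher genes were eif2s3, eif2s1b, eif1axa and eif4a1a, with log2 fold changes of 1.36 ± 0.40, 1.09 ± 0.30, 1.49 ± 0.49 and 1.18 ± 0.34. None of the eIF2B, eIF4B/4H, eIF4E and eIF4G genes was called. Each of these 11 initiation calls was lost without control sample 5, with adjusted p from 0.0793 for eif3hb to 0.332 for eif3ha, and all but that of eif3m also without control sample 1 (from 0.0574 to 0.203).

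These calls depended on the libraries. With each of the 5 libraries left out in turn, 3 to 19 factors were called higher and 3 to 5 lower, eif3bb and eef1a2 included: 5 and 3 without control sample 1, 3 and 3 without control sample 5, 9 and 4 without sample 2 of the other brain cells, 15 and 5 without sample 6, and 19 and 4 without sample 10. The genes called whichever library was left out were eef1b2, eef1da and eef2a.1 (higher) and eef1a1a, eef1a1b and eef2l2 (lower), all of elongation. They were also called under every other alternative run. After quantile normalisation, which moved the median of all genes in this comparison to 0.06, 8 factors were higher and 4 lower. Over all 21714 genes that setting called 3557 higher and 3428 lower. The share of the factors called higher was then below that of all genes. Over all genes, 2471 were higher without sample 2 of the other brain cells, 3200 without sample 6 and 3243 without sample 10. In the same order, 3296, 4922 and 4210 were lower.

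Activated microglia were also set against other brain cells. Here 42 of the 72 factors were higher (58.3%, against 22.9% of all genes) and 8 were lower (11.1%, against 27.6%). Without eif3bb and eef1a2, again in the test through the other brain cells alone, 6 of 70 were lower (8.57%). The median log2 fold change was 1.24 (1.25 without these genes), against -0.05 for all genes. Every activated library lay above every library of other brain cells for 40 factors (24.2% of all genes) and below for 9 (29.3%). The 9 include eif3bb and eef1a2, whose direction was set by the filter. Both comparisons use the same libraries of other brain cells. Of the 18 genes higher in control microglia 17 were among these 42, and of the 5 lower genes 4 were among these 6, the exceptions being eif3f and eef1e1. The genes higher in activated microglia alone among the comparisons with other brain cells included 3 of the eIF2B genes, eif2b2, eif2b3 and eif2b5, and eif4bb, eif4h, eif4g1a, eif5, eif5b, eif6, both eIF5A genes and eef2b. Not all of these calls were stable. That of eif2b3 was lost without 24 h sample 7 (adjusted p = 0.0678), 48 h sample 4 (0.0514), or sample 2 (0.0657) or 6 (0.0704) of the other brain cells. That of eif2b5 was lost without 24 h sample 3 (0.0919) or 7 (0.101), 48 h sample 4 (0.0763), or sample 2 (0.110) or 6 (0.156) of the other brain cells, and by limma-voom (0.0586). The call of eif4h was lost without 24 h sample 3 (0.0520) or any library of other brain cells (0.0709 to 0.0761), with the block (0.0735) and after quantile normalisation (0.0879), which also ended that of eif5a (0.341). Whether these differ between the microglia groups is the test of the first comparison, in which only eif2a passed.

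Library values of the leading genes follow. For eif4bb, the eIF4B gene, the signals were 105 to 149.7 in activated microglia, against 24.1, 10.1 and 35.4 in other brain cells, a log2 fold change of 2.53 ± 0.39 (limma, adjusted p = 0.000422). The gene eif3ha had 101 to 116 in activated microglia, against 17 to 27.2 in other brain cells, and was the initiation gene with the smallest adjusted p (2.25 ± 0.26, limma, adjusted p = 6.58e-05). The cap scaffold gene eif4g1a had 116 to 273, against 29.8 to 67.7 (2.32 ± 0.40), and eif2a had 35.2 to 55.2, against 5.31 to 10.8 (2.25 ± 0.32). In each of these the groups were separate. The largest fold change belonged to eef2b, with 543 to 1269 in activated microglia against 44.7 to 482 in other brain cells (2.62 ± 0.68, limma, adjusted p = 0.00929), where sample 10 of the other brain cells came close to the lowest activated library. After quantile normalisation the adjusted p of eef2b was 0.0786.

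Every subunit gene of eIF2 and 12 of 17 genes of eIF3 were higher in activated microglia than in other brain cells. No gene of the eIF4E family was higher, and eif4e2, which encodes a cap-binding protein known in mammals as a repressor of translation, was lower, with signals of 7.13 to 13.0 in activated microglia against 20.3 to 23.4 in other brain cells (-0.96 ± 0.30, limma, adjusted p = 0.021, but 0.0645 without 24 h sample 7, and 0.0584 and 0.0592 without samples 2 and 6 of the other brain cells). A second EIF4G3 gene, EIF4G3 (2 of 2), was lower too (4.86 to 11.7 against 14.7 to 29.2; -1.43 ± 0.38). The lowest fold changes were again those of eef1a1a (-4.74 ± 0.29), eef2l2 (-3.66 ± 0.30) and eef1a1b (-3.12 ± 0.43). Leaving out each of the 7 libraries in turn gave 37 to 43 genes higher and 7 to 10 lower with eif3bb and eef1a2 included. Over all 21714 genes the same fits gave 4021 to 5432 higher and 5256 to 6014 lower. After quantile normalisation 32 of the 72 factors were higher and 8 lower, with eif3bb and eef1a2 in the test. That setting called 5725 of all genes higher and 5126 lower, and the median of the factors was 0.83. Of the factors, 28 of the 42 higher and 5 of the 6 lower were called under every alternative run.

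The regulators and partners of the factors were counted from lists of pathway genes that are not factors. Between activated and control microglia no gene of any of the 13 lists passed. Values of some of those with large fold changes follow. The kinase gene eef2k, whose product inhibits eEF2, had signals of 36.1 and 18.5 at 24 h and 39.3 and 32.7 at 48 h, against 9.65 and 9.20 in control microglia (log2 fold change 1.59, limma, adjusted p = 0.0786). The poly(A)-binding protein gene pabpc1a, whose product bridges mRNA tails to eIF4G, had 1083, 996, 1108 and 608 in activated microglia, against 177 and 289 (2.03, limma, adjusted p = 0.0601). All 4 termination and recycling genes and all 6 mitochondrial translation factor genes had fold changes above 0, with medians of 1.03 and 0.71 on the log2 scale. Of the mitochondrial genes, gfm1 had 42.5 and 37.3 at 24 h and 25.7 and 18.9 at 48 h, against 3.00 and 8.44 in control microglia. Signals of tufm were 122 and 126 at 24 h and 86.2 and 82.4 at 48 h, against 21.2 and 47.7. Of the 9 genes of the integrated stress response, which the kinases of eIF2 set off, 4 were above 0, with a median of -0.23.

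Against other brain cells some genes of the lists passed; no list was tested as a whole, and libraries were not left out in turn for them. In control microglia the integrated stress response had 4 of 9 genes higher (15.1% of all genes) and none lower (20.2%): ddit3, with 622 and 381 in control microglia against 101, 21.3 and 99.8 in other brain cells, ppp1r15a, trib3 and chac1. Of the mTORC1 list, whose kinase drives cap-dependent translation, 1 of 11 genes was higher (rps6kb1a, an S6 kinase) and 5 were lower (akt1s1, rheb, rptor, tsc1b and TSC2, which include both activators and inhibitors of the complex). The eIF4E-binding protein genes eif4ebp1 (404 and 399.8 in control microglia, against 147, 219.9 and 85.6) and eif4ebp3l were higher, 2 of 4. Among genes that make diphthamide, the modified residue of eEF2, dph2 had 118 and 121 in control microglia, against 6.86, 6.61 and 7.14 in other brain cells (3.93 on the log2 scale, limma, adjusted p = 9.66e-05), and dph7 was higher as well, 2 of 6. The poly(A)-binding copy pabpc1b was lower in control microglia (9.19 and 17.9 against 95.1, 41.4 and 173), and pabpc1a did not pass. Of the Myc genes, mych was higher and mycn lower, 1 each of 5.

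Libraries of a group did not move alike across the 72 genes. Of the 4 activated libraries, 48 h sample 8 was the highest for 37 factors and the lowest for 20, and 48 h sample 4 was the highest for 7 and the lowest for 37. Among other brain cells, sample 10 was the highest of 3 for 35 factors and the lowest for 24. Of the 20 factors lowest in 48 h sample 8, 17 were highest in sample 10 and 1 was lowest there, and of the 37 highest in 48 h sample 8, 8 were highest and 21 lowest in sample 10. Such counts were not made over all genes, so they do not show whether the pattern is particular to the factors. The factors low in 48 h sample 8 included eef2b, eif4g1a, EIF4G1 (2 of 2), eif4g2a and eif3s10, and those high in it included eif1axb, eif2s1a, eif2b2 and eif5a. As a description over the 72 genes, the log2 difference between sample 10 and sample 6 of the other brain cells had a Pearson r of 0.767 (Spearman 0.765) with the difference between 48 h samples 4 and 8, against 0.425 (0.416) over all genes. These pairs share no library, and every gene is measured in the same libraries. The difference between samples 10 and 6 had an r of 0.465 (Spearman 0.425) with activated minus control microglia over the 72 genes, against 0.267 (0.246) over all genes. What sets these libraries apart was not tested.

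**Figure D5:**
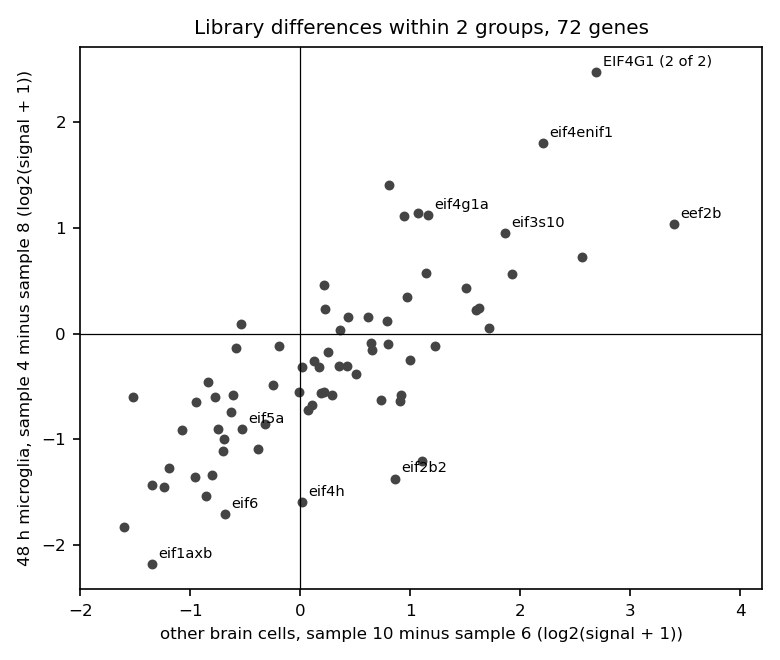
Each point is 1 of the 72 factor genes, placed by the log2 difference of sample 10 minus sample 6 of the other brain cells on the x axis and of 48 h sample 4 minus 48 h sample 8 on the y axis. The points run upward (Pearson r = 0.767), with EIF4G1 (2 of 2), eif4enif1 and eef2b at the upper right and eif1axb at the lower left.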

How the data were processed

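Total RNA of sorted zebrafish cells was amplified (SMARTer kit), prepared with a TruSeq kit and sequenced as 50-nucleotide single reads, per the labels' protocols. Reads were processed with TopHat2 2.0.5, SAMtools 0.1.18 and edgeR against GRCz10, per the submitters' processing notes; the counting tool and its settings are not given in the sources used here. The deposited table gives the authors' normalised signal per gene, in which every value is a constant of 0.223 plus a whole number of equal steps per library (largest deviation 8.55e-05 steps), so reads and depth could be read off. The authors' deposited table of comparisons gives log2 fold changes with p-values adjusted as FDR; these were copied only where so named. The control column of sample 9 equals that of 24 h sample 3 in all 21756 genes, while other pairs of columns share at most 1376 values. It was left out, leaving 9 columns.

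Log2(signal + 1) was fitted with limma 3.58.1 (R 4.3.3, trend) on the libraries of each comparison's own design, keeping genes with a signal of at least 1 in at least 2 libraries, and Benjamini-Hochberg adjustment ran over 21714 genes with a threshold of 0.05. The code was tested on simulated data. Alternatives were other pseudocounts, filters and normalisation, limma-voom on reads, a block of consecutive sample numbers, all 9 libraries in 1 fit, sample 9 as labelled, both identical columns out, and each library left out in turn. Named were the most abundant gene of each family, the called genes (up to 10 per direction) or else the 10 with the smallest p, and their copies. Other genes named for their library pattern or fold were chosen after their values were seen. The genes and lists were chosen with earlier results of these data known. Figures were drawn with matplotlib 3.10.9. No sequences are printed, since none of these genes' sequences were at hand.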

Additional observations from a re-analysis of the deposited data

Results flagged for a closer look

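For 9 of the 72 factors, 1 of the 4 activated libraries stood apart from the other 3 by Dixon's criterion, which chance meets in about 1 in 20 groups. The same criterion marked 14.5% of all genes tested, 7.46% with 48 h sample 8 high and 1.62% with it low, so 9 of 72 is not above the share of all genes. In 6 of these, 48 h sample 8 was the high library: eif1ad at 49.7 against 17.7 to 22.9 in the others, eif2s1a at 195 against 70.8 to 83.2, eif2b2 at 96.7 against 31.9 to 37.3, eif5a at 965 against 515 to 548, eef1a1b at 12.9 against 4.25 to 5.14, and eef1da at 491 against 306 to 308. The same sample was the low library for eif4g1a, at 116 against 253 to 273. In 48 h sample 4, eif4a3 was low at 109 against 135 to 138, and eif3bb stood at 0.452, which is 2 reads, against 0.223, or 0 reads, in the others. All values are the authors' normalised signal.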

How the results depend on the processing

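Of 1786 checks of single factors under an alternative, 1635 kept direction and status, called or not, 139 lost and 12 gained the call, and 0 changed direction. The checks followed the called factors of a comparison or, where few or none were called, those with the smallest p. The other factors were not checked singly. Factors picked this way in the same data were unlikely to change direction, so that count does not test the direction of the factors as a set. The checks include eif3bb and eef1a2, whose direction against other brain cells was set by the filter. In the comparisons of single time points no factor was called, so no call could be lost. Leaving both identical columns out is the same fit as leaving out 24 h sample 3. For control microglia against other brain cells, 202 checks kept and 21 lost the call, leaving libraries out apart. A larger share was lost when libraries were left out. Between activated and control microglia, the count of 1 higher factor became 5 with a filter at a signal of 5, 2 with all 9 libraries in 1 fit, and 0 with limma-voom, with sample 9 used as labelled, or with both identical columns left out; eif2a then had an adjusted p from 0.0256 to 0.611 over these and other settings, leaving libraries out apart. Over all genes, 477 of 16558 were higher with that filter, 300 of 21714 with all 9 libraries and 23 with limma-voom. With sample 9 as labelled or both identical columns out, 0 genes were called. Leaving out an activated library gave 0 factors without 24 h sample 3 or 7 or 48 h sample 4, and 15 without 48 h sample 8. Over all 21714 genes, 0 were higher in the former fits and 1043 in the latter. A fit without control sample 1 or 5 leaves 1 control library. At 48 h against control, 1 factor was higher with all 9 libraries in 1 fit (190 of 21714 genes). Between control microglia and other brain cells, log2(signal + 4) gave 4 lower and quantile normalisation 8 higher and 4 lower. Leaving out each library of other brain cells gave 9 to 19 higher and 4 to 5 lower. Over all genes these fits gave 2471 to 3243 higher and 3296 to 4922 lower. Fewer factors, and fewer of all genes, were called when a control sample was left out, which leaves 1 control library. Over all 21714 genes quantile normalisation called 3557 higher and 3428 lower there. It moved the median of all genes to 0.06 from -0.14, and that of the factors to 0.22 from 0.44. No sample number is shared between groups, so none pairs samples. With consecutive numbers as a replicate block, 0 factors were higher in activated than in control microglia (0 of 21714 genes). In control microglia against other brain cells the block gave 27 higher and 6 lower (3697 and 4817 of all genes). In activated microglia against other brain cells it gave 41 and 9 (4819 and 5730 of all genes). The cause was not tested where a count moved. Leaving libraries out was not run for the pathway lists. Genes near 0 reads, such as eif3bb and eef1a2, are limited by depth.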
